A study of Mus musculus with 8 samples.

Results

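The motor genes described here are 47 mouse genes whose symbols mark them as kinesin, dynein, dynactin or myosin genes and which carried at least 1 peak of N6-methyladenosine (m6A) in spermatogenic cells. They were chosen by name: the symbol in any of the 4 deposited peak lists had to begin with Kif, Klc, Dync, Dynl, Dctn, Myo or Myh in the form of a motor gene. The smooth muscle gene Myh11 was matched by name and left out. The 47 genes were 47 of the 8733 genes with a peak in any list. They were 24 kinesin heavy chain genes, 2 kinesin light chain genes, 3 cytoplasmic dynein chain genes, 3 dynein light chain genes, 1 dynactin subunit gene, 10 unconventional myosin genes and 4 myosin heavy chain genes. Of these, 45 were annotated as protein coding and 2, Kif4-ps and Dynlt1-ps1, as pseudogenes, whose reads may be shared with the parent gene. No value of the counts or of the peaks entered the choice beyond the presence of a peak.

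Spermatogenic cells of C57BL/6 mice aged 12 weeks were studied, either wild type (WT) or Alkbh5-/- (KO), where ALKBH5 is an enzyme that removes m6A from RNA. Total RNA of 2 cell fractions, PA and RO, which the series title gives as pachytene spermatocytes and round spermatids, was fragmented and precipitated with an antibody against m6A (methylated RNA immunoprecipitation sequencing, MeRIP-seq). Each of the 4 combinations of genotype and fraction had 1 input library and 1 immunoprecipitated library, 8 samples in all. There was therefore no replicate check and no test between groups, and the intervals below cover counting error only. The labels do not say how many mice gave each sample or how the knockout allele was made.

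Kinesins and dyneins walk along microtubules and myosins along actin filaments, each using ATP. In male germ cells they serve the meiotic spindle, cytokinesis, the transport of vesicles and of cilium components, the shaping of the sperm head and the assembly of the sperm tail. In mRNA, m6A lies mostly in long internal exons, around stop codons and in 3′ untranslated regions (3′UTRs), commonly within a motif that contains GGAC.

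The input libraries held 9921365 to 13147239 gene counts. Levels are given as CPM, a gene's count over the library size that trimmed means (TMM) gave, at a common scale for all libraries, and differences as log2 ratios. Where 4 values stand without names they follow the order WT PA, KO PA, WT RO, KO RO. A level depends on gene length and is set only against the same gene, or the same list of genes, in another library. Alkbh5, the targeted gene, was not analysed here, and so gave no check of the genotype labels. The marker lists set the fractions apart only in part. Only markers with a peak in some list could be followed, since symbols came from the peak lists. The 6 pachytene markers of 20 summed to 2770 CPM in WT and 1730 in KO for PA and 2500 and 2040 for RO. Sycp2 alone made up 1780, 826, 1520 and 930 CPM of these sums. Singly, 3 of the 6 were higher in RO than in PA in WT, and 4 in KO. Higher in KO than in WT were 2 of the 6 in PA and 3 in RO. The 17 round spermatid markers of 26 summed to 607, 1110, 1210 and 1810 CPM in the same order. This sum was higher in RO than in PA within each genotype and higher in KO than in WT within each fraction. Singly, 16 of the 17 were higher in RO than in PA in each genotype. Between the genotypes 13 were higher and 4 lower in KO in PA, and 11 and 6 in RO. Markers of other testis cells were present in every library: 5 Sertoli markers of 14 summed to between 194 and 359 CPM, and 6 endothelial markers of 9 to between 111 and 282 CPM. The 4 Leydig markers of 9 summed to 207, 63.7, 63.1 and 36.3 CPM in the order above. All 4 were at least 2-fold lower in KO than in WT in PA and 2 of 4 in RO. All 4 were also lower in RO than in PA in WT and 3 of 4 in KO, and their part in the ratios below was not tested. Fewer cells of a type and less RNA per cell cannot be told apart in these libraries.

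The unconventional myosin Myo9a is shown first because it carried the most peaks of any motor gene and a peak at its start. In the WT RO list a peak lay at chr9:59751076-59751196 (plus strand, GRCm38, the mm10 assembly). It begins 98 bases before the RefSeq start site at position 59751174. In the KO RO list a longer peak covers the same start. Both hold GGAC on the RNA strand, in capitals in these 30-base stretches, read 5′ to 3′ from the RefSeq promoter table (GRCm38.p6).
Myo9a, WT RO peak, chr9:59751167-59751196: gggatgcgcggccgccgctctctcGGACcc
Myo9a, KO RO peak, chr9:59751178-59751207: ccgccgctctctcGGACcctgaggcgactg
The same occurrence of the motif stands in both stretches. GGAC was searched on both strands. The WT RO peak held it 1 time on each strand, and the part of the KO RO peak in the promoter window only on the RNA strand. On the RNA strand 35.4% of 32851 promoter windows held it in the 121 bases that correspond to the WT RO peak, and 35.7% on the opposite strand. For the 58 bases of the KO RO peak that lie in the window the share was 21.1%. A 5′UTR peak of Myo5a, a motor for vesicles along actin, began at chr9:75071225 in the WT RO list only. Its 31 bases in the promoter window held no GGAC, as was the case for most windows, since 12.1% held it there. A match to so short a motif is a description of the letters, not of a methylated site. Promoter sequence was matched for 39 of the 47 genes.

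The 4 lists held 207 peaks in motor genes out of 35697. In WT PA 42 peaks lay in 26 of the 47 genes, or 55.3% of them (Wilson 95% interval 41.2 to 68.6%), where the share was 53.9% over all genes with a peak in any list. In KO PA 67 peaks lay in 37 genes, 78.7% (65.1 to 88.0%), against 69.7% of all genes. In WT RO 46 peaks lay in 23 genes, 48.9% (35.3 to 62.8%), against 66.4%. In KO RO 52 peaks lay in 30 genes, 63.8% (49.5 to 76.0%), against 63.9%. The motor genes thus had a peak most often in KO PA and least often in WT RO. Only the WT RO interval lay below the share of all genes. With 1 list each, the yield of a precipitation and the genotype or fraction cannot be told apart. Motor genes with a peak carried 1.62 peaks each in WT and 1.81 in KO for PA and 2.0 and 1.73 for RO, where all genes carried between 1.59 and 1.63.

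**Figure D1:**
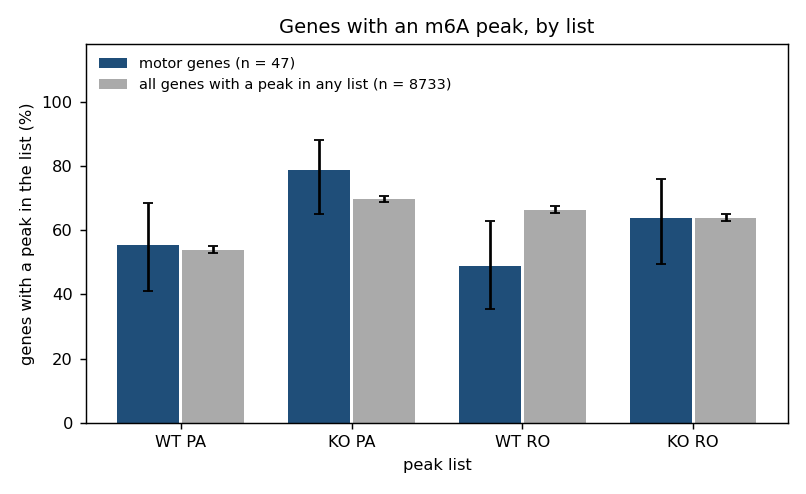
Share of genes with at least 1 m6A peak in each of the 4 lists, in percent, for the 47 motor genes (blue) and all 8733 genes with a peak in any list (grey); error bars are Wilson 95% intervals, which cover counting error only. The motor genes run from 48.9% in WT RO to 78.7% in KO PA, and the bar for all genes lies above the motor gene interval only in WT RO.

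Most motor gene peaks lay in coding sequence. The share in coding sequence was 64.3% in WT and 73.1% in KO for PA and 58.7% and 73.1% for RO, against 56.4%, 55.2%, 49.8% and 53.4% of all peaks. The 2 KO intervals (61.5 to 82.3% in KO PA and 59.7 to 83.2% in KO RO) lay above the share of all peaks, and the WT intervals included it. Peaks labelled only as exon were fewer, 7.46% (3.23 to 16.3%) of motor gene peaks in KO PA and 7.69% (3.03 to 18.2%) in KO RO. Of all peaks 19.2% and 19.4% had this label, and again only the WT intervals included the share. All peaks were those of any gene, and a set limited to protein-coding genes was not tested. The 3′UTR held 9, 12, 9 and 10 motor gene peaks in WT PA, KO PA, WT RO and KO RO. These were 21.4%, 17.9%, 19.6% and 19.2% of them, against between 20.7% and 24.6% of all peaks. The 5′UTR held 1, 1, 3 and 0. These were 2.38%, 1.49%, 6.52% and 0%, against between 2.84% and 3.82% of all peaks. For both UTRs the motor gene interval included the share of all peaks in each list. Peaks that ran over more than 1 exon made up 40.3% of the motor gene peaks in KO PA and 25.0% in KO RO, against 14.3% in WT PA and 15.2% in WT RO. Over all genes these shares were 21.2%, 16.1%, 13.8% and 13.4%, so that a higher share in KO PA was common to all genes. By the authors' false discovery rate, 6 motor gene peaks in WT PA (14.3%) and 5 in WT RO (10.9%) were at 0.05 or above, and 0 in each KO list. Over all genes 6.88% of WT PA, 13.1% of WT RO, 2.15% of KO PA and 3.54% of KO RO peaks were, so that a higher share in WT was common to all genes. In WT PA they were the peaks of Kif7, Kif18b and Klc2, both peaks of Myh6 and a peak of Myo5a. In WT RO they were the peak of Kif1b and 1 peak each of Myo5a, Myo9a, Myo9b and Myo18a. The Myo5a peaks among them are the one in the 5′UTR, described above, and that of the 3′UTR in WT PA.

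Across the lists, 16 motor genes (34.0%) had a peak in all 4, as did 34.4% of all genes with a peak in any list. Another 6 had a peak in 3 lists (12.8% against 16.4%) and 9 in 2 lists (19.1% against 17.8%). In 1 list 16 had a peak, 34.0% against 31.4%. The 16 genes found in every list were Kif3b, Kif4-ps, Kif13b, Kif14, Kif16b, Kif20b, Kif24, Kif27, Dync1h1, Dynll1, Myo5a, Myo7a, Myo9a, Myo9b, Myo10 and Myo18a. A peak in both KO lists and in neither WT list was found for 6 genes, 12.8% against 6.87% of all genes: Dync1li1, Dync2h1, Dynll2, Dctn5, Myh15 and Myo3a. Of these, 4 belong to the 7 dynein and dynactin genes. The reverse, a peak in both WT lists and in neither KO list, was found for 0 motor genes and for 2.32% of all genes. In KO PA only, 6 genes had a peak (Kif3a, Kif5a, Kif13a, Kif15, Kif21b and Myh9), 12.8% against 7.53%. In WT PA only, 5 did (Kif1c, Kif18b, Klc2, Myh6 and Myo1a), 10.6% against 4.17%. In WT RO only, 3 had a peak (Kif2c, Klc3 and Dynlt1-ps1), 6.38% against 14.3% of all genes. In KO RO only, Kif28 and Myo19 did, 4.26% against 5.31%. With peaks under a false discovery rate of 0.05 alone, a setting added after the values were seen, 44 of the motor genes kept a peak. Those with peaks in both KO lists and in neither WT list then numbered 8, since Kif1b and Kif7 joined them, 18.2% against 8.19% of all genes. Those with a peak in WT PA only numbered 2 (Kif1c and Myo1a), 4.55% against 3.36%. A peak in all 4 lists was kept by 14, 31.8% against 35.3%.

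**Figure D2:**
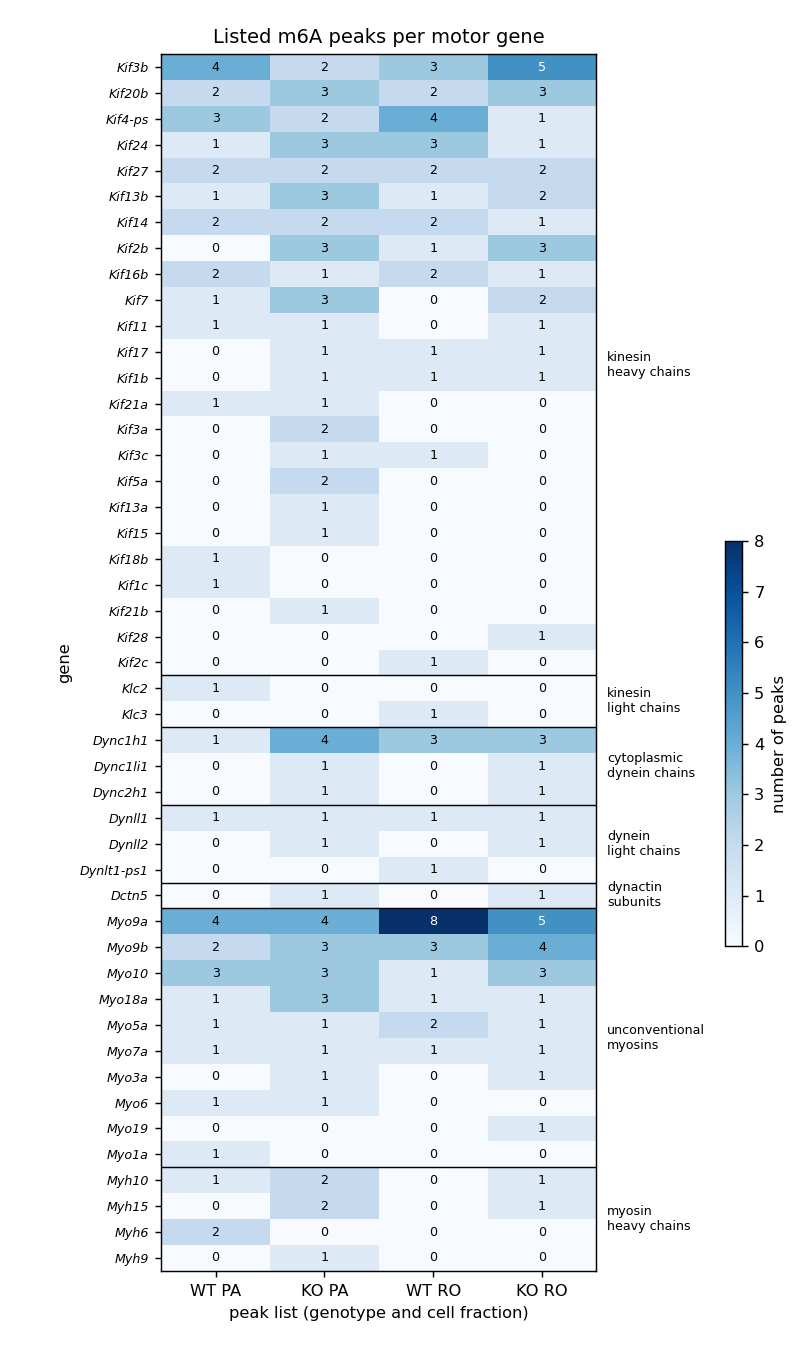
Number of listed m6A peaks in each of the 47 motor genes (rows, grouped by class) in the 4 lists (columns, genotype and fraction); colour and digits give the number of peaks. Myo9a has 4, 4, 8 and 5 peaks, Kif3b 4, 2, 3 and 5, and several dynein genes have peaks in the KO columns only.

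Among the kinesins, Kif3b, a motor subunit of the kinesin that carries cargo into cilia and flagella, had the most peaks: 4 in WT and 2 in KO for PA and 3 and 5 for RO. A region at chr2:153316305-153320625 (plus strand), in coding sequence, held peaks in all 4 lists. Its highest fold, the authors' ratio of immunoprecipitated to input signal, was 27.4 in WT and 46.9 in KO for PA and 121 and 37.9 for RO, above 78.8%, 90.2%, 96.2% and 86.4% of the peaks of the respective list. The folds belong to their own lists and were not compared between them. The partner subunit Kif3a had 2 peaks in KO PA and 0 in the other lists, and the related Kif3c had 1 in KO PA and 1 in WT RO, at different places.

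Kif14, a kinesin of the midbody needed for cytokinesis, had a coding region at chr1:136468031-136469109 (plus strand) with peaks in all 4 lists and folds of 34.3, 218, 16.8 and 29.3. In KO PA this fold was above 99.8% of the list, and in the other lists above 84.7% (WT PA), 53.5% (WT RO) and 80.9% (KO RO). Kif20b, another kinesin of cytokinesis, had 2, 3, 2 and 3 peaks, and 1 of its 3 regions was in all 4 lists. The pseudogene Kif4-ps had 3, 2, 4 and 1 peaks over 7 regions, of which only 1 was found in all lists. Kif2b, a kinesin that takes microtubules apart instead of walking along them, had 0 peaks in WT and 3 in KO for PA and 1 and 3 for RO. Kif7 and Kif27, a pair of kinesins related to cilia, differed: Kif27 had 2 peaks in every list, while Kif7 had 1, 3, 0 and 2. Kif11, the motor that pushes spindle poles apart, had 1 peak each in WT PA, KO PA and KO RO. Those of WT PA and KO PA shared a 3′UTR region, and that of KO RO lay elsewhere, in coding sequence. Kif15, which shares the task of Kif11, had 1 peak in KO PA only.

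The dynein genes had few peaks outside the heavy chain of cytoplasmic dynein. Dync1h1, that heavy chain, had 1 peak in WT and 4 in KO for PA and 3 and 3 for RO. Its 3 regions were all in coding sequence, at chr12:110617752-110618052, chr12:110618292-110618562 and chr12:110665099-110666795 (plus strand). The middle one was in all 4 lists, with folds of 2.91, 5.93, 4.36 and 9.19. These were low folds, above 4.6%, 16.3%, 6.5% and 37.8% of their lists. Dync2h1, the heavy chain of the dynein that returns cargo along cilia and flagella, had 1 coding peak in KO PA (fold 2.6) and 1 in KO RO (fold 2.76) at the same place, chr9:7141048-7142236 (minus strand). Dync1li1, the light intermediate chain that binds cargo adaptors, had a 3′UTR peak at chr9:114723647-114723975 (plus strand) with folds of 26.7 in KO PA and 5.68 in KO RO. Dynll2, a light chain that also binds many other proteins, had a 3′UTR peak at chr11:87981309-87981517 (minus strand) with folds of 5.55 in KO PA and 4.22 in KO RO, and Dctn5, a subunit of dynactin, an exonic peak with 7.52 and 5.24. The sister light chain Dynll1 had the same exonic region in all 4 lists, with folds of 16.3, 8.68, 21.5 and 11.1. For the KO-only dynein peaks the folds were above 2.3% to 23.6% of their lists, except Dync1li1 in KO PA, above 76.9%.

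Among the myosins, Myo9a had 4 peaks in WT and 4 in KO for PA and 8 and 5 for RO, and Myo9b, its relative, 2, 3, 3 and 4. A Myo9a coding region at chr9:59923724-59925091 (plus strand) had folds of 53.6, 55.0, 160 and 89.7, above 92.8% to 97.9% of each list. Myo7a, a motor of stereocilia and of the testis epithelium, had a single region, at chr7:98051090-98052197 (minus strand), over the end of the coding sequence and the 3′UTR. Its folds of 78.0 in WT and 178 in KO for PA and 402 and 135 for RO were above 96.3%, 99.6%, 99.8% and 98.8% of the lists, so that it stood near the top of every list. Myo9b had a coding region at chr8:71347927-71349136 (plus strand) with folds of 30.6 in WT PA, 85.7 in KO PA and 112 in KO RO and 0 peaks there in WT RO. Myo5a had a 3′UTR region at chr9:75218055-75218684 (plus strand) with folds of 3.16, 25.6, 65.9 and 100.0, low in its WT PA list (above 5.6%) and high in KO RO (above 97.6%). Myo10, a myosin of filopodia, had 3, 3, 1 and 3 peaks.

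The myosin heavy chain genes had few peaks and 0 in WT RO. Myh10, a non-muscle heavy chain used in cytokinesis, had 1, 2, 0 and 1 peaks, and Myh15 had 0, 2, 0 and 1. The cardiac heavy chain Myh6 had 2 peaks, in WT PA only and both at a false discovery rate over 0.05, and Myh9, the other non-muscle heavy chain, 1 in KO PA only, with a fold of 1.96 that was above 0.6% of its list.

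Peaks were called shared where their exons had 1 bp or more in common on 1 strand. Of the WT PA peaks in motor genes 73.8% were shared with KO PA, and of the KO PA peaks 41.8% (30.7 to 53.7%) with WT PA. For all genes these shares were 79.7% and 56.6%, so the second was lower in motor genes. In RO 69.6% (55.2 to 80.9%) of WT peaks were shared with KO, against 55.9% for all genes, and 55.8% of KO peaks with WT, against 58.9%. Between the fractions, 90.4% (79.4 to 95.8%) of the KO RO peaks were shared with KO PA and 65.7% of the KO PA peaks with KO RO, where all genes gave 81.1% and 70.0%. In WT 54.8% of PA peaks were shared with RO and 52.2% of RO peaks with PA, against 64.1% and 50.6%. Merged over the lists, the peaks formed 90 regions, of which 17 were in all 4 lists (18.9% against 23.9% of all regions) and 42 in 1 list (46.7% against 42.9%).

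Whether a motor gene had a peak was set against its level in the input library of the same name. In this paragraph all genes are those with a peak in any list, so genes without a peak are not counted. In WT PA 20 of 27 motor genes at a CPM of at least 100 had a peak, 74.1%. Of all genes at that level with a peak in any list, 73.0% had one in WT PA. In KO PA it was 22 of 23, 95.7% against 88.7%, and in KO RO 21 of 27, 77.8% against 80.7%. In WT RO it was 15 of 27, 55.6% (37.3 to 72.4%) against 80.6%. Under 30 CPM the numbers were 2 of 11 in WT PA (18.2% against 43.2% of all such genes), 4 of 10 in KO PA (40% against 57.0%), 3 of 12 in WT RO (25.0% against 57.7%) and 4 of 10 in KO RO (40% against 53.7%). Genes at low level had a peak less often in each list, motor genes and all genes alike. In WT RO the motor gene interval lay below the share of all genes at both of these levels, and included it at 30 to 100 CPM. The 12 motor genes at a CPM of at least 100 in WT RO without a peak there included Dync2h1, Kif3a, Kif11, Kif15, Klc2, Myh9, Myh10 and Myh15.

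All 47 motor genes had counts in all 4 libraries, from 17 to 18214 a library. Members past a 2-fold difference were counted, with the same count over all genes with a CPM of at least 1 beside it. In PA 3 motor genes were at least 2-fold higher in KO than in WT (Kif2b, Kif28 and Klc3), where 23.8% of all genes were. At least 2-fold lower were 2 (Myo1a and Myo19), where 19.9% were. That made 10.6% of the motor genes either way, against 27.0% of the genes with a peak. In RO 5 were higher (Kif2b, Myo3a, Myh6, Myh9 and Dynll2) against 23.0% of all genes, and 6 lower (Myo1a, Kif18b, Kif14, Klc2, Dynlt1-ps1 and Myo7a) against 19.0%. That made 23.4% either way, against 27.0% of the genes with a peak. The median log2 ratio of the motor genes was -0.17 in PA and -0.08 in RO, beside -0.05 for genes with a peak in both fractions. Scaling on total counts alone moved the median of all genes to 0.35 in PA and 0.22 in RO, and that of the motor genes to 0.12 and 0.10, so that the sign of the small median shift depended on the scaling. It also moved the split of the calls to 6 higher and 1 lower in PA (85.7% higher against 60.0%) and to 5 and 2 in RO (71.4% against 45.5%). Dynll2, Kif18b and Myh9 were then also called higher in PA. Myo19 in PA and Kif14, Klc2, Dynlt1-ps1 and Myo7a in RO were no longer called lower. Most motor genes had high counts. Among genes with a peak, ratios spread less at high counts: the robust SD in PA was 1.36 at summed counts of 40 to 200, 0.89 at 200 to 1000, 0.63 at 1000 to 4000 and 0.62 above. In RO it was 1.29, 0.83, 0.63 and 0.52. In PA 2 of 2, 1 of 13, 2 of 16 and 0 of 16 motor genes were past 2-fold in these ranges. Of the genes with a peak 46.1%, 26.3%, 13.2% and 16.9% were. In RO the numbers were 0 of 2, 4 of 13, 5 of 16 and 2 of 16, against 44.6%, 25.8%, 14.6% and 15.1%.

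**Figure D3:**
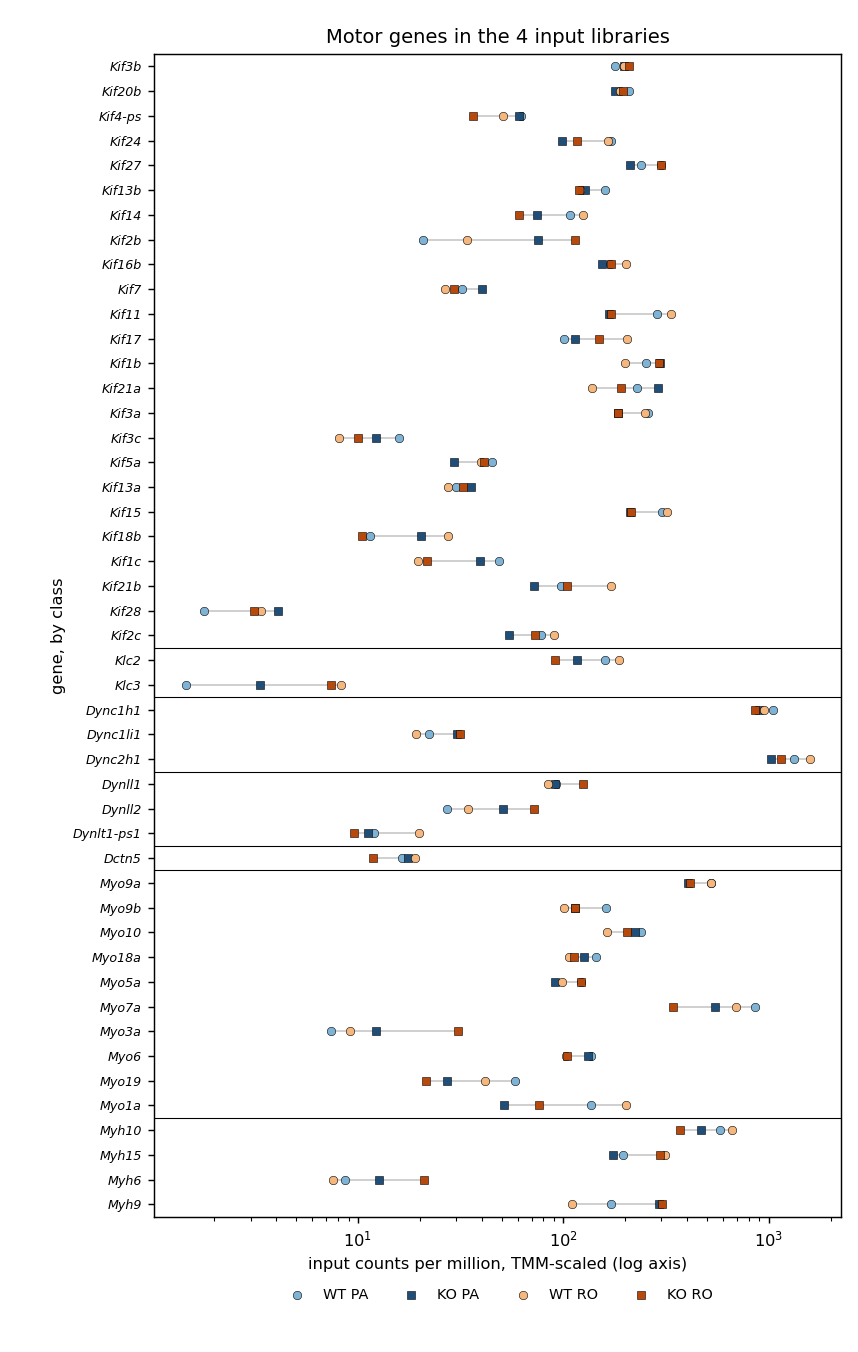
TMM-scaled input CPM (log axis) of the 47 motor genes in the 4 libraries, 1 point per library; circles are WT and squares KO, blue PA and orange RO. Kif2b runs from 20.6 CPM in WT PA to 114 in KO RO with both KO squares to the right of both WT circles, and Myo1a shows the opposite order.

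Both KO libraries were above both WT libraries for 8 motor genes, 17.0% against 22.3% of the genes with a peak and a CPM of at least 1. They were Kif1b, Kif2b, Kif13a, Dync1li1, Dynll2, Myo3a, Myh6 and Myh9. Both were below for 15, 31.9% against 28.0%. They were Kif2c, Kif3a, Kif11, Kif14, Kif15, Kif24, Klc2, Dync1h1, Dync2h1, Dynlt1-ps1, Myo1a, Myo7a, Myo9a, Myo19 and Myh10. With total counts alone the numbers turned to 15 above, 31.9% against 33.0%, and 11 below, 23.4% against 19.4%. All of the first 8 were among the 15.

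Kif2b was the kinesin with the greatest difference. Its level was 20.6 CPM in WT and 75.0 in KO for PA and 34.0 and 114 for RO. Both KO libraries were high and both WT libraries low, with no overlap. The log2 ratio of KO over WT was 1.85 in PA (exact 95% interval 1.65 to 2.08) and 1.74 in RO (1.58 to 1.91), or 3.61-fold and 3.33-fold. It was the only motor gene at least 2-fold higher in both fractions. Of all genes with a peak and a CPM of at least 10, 4.04% were. Its peaks also numbered 3 in each KO list, against 0 in WT PA and 1 in WT RO. Of the 17 round spermatid markers, 10 were at least 2-fold higher in KO than in WT in PA and 0 at least 2-fold lower. In RO 8 were at least 2-fold higher and 1 lower. At any size of difference 4 were lower in PA and 6 in RO. Their part in the ratio of Kif2b was not tested.

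Kif18b, a kinesin that limits the length of astral microtubules, differed in opposite directions. Its level was 11.4 CPM in WT and 20.3 in KO for PA and 27.4 and 10.5 for RO. The KO library was the higher in PA and the lower in RO. The log2 ratios were 0.82 (0.52 to 1.15) and -1.37 (-1.70 to -1.07). Kif14 stood at 108, 74.2, 124 and 60.7 CPM in WT PA, KO PA, WT RO and KO RO, with log2 ratios of -0.54 in PA and -1.03 in RO. Kif11 was at 287, 166, 335 and 171 CPM, with -0.79 and -0.97, and Kif15 at 301, 212, 321 and 212 CPM, with -0.50 and -0.59. For Kif11, Kif14 and Kif15 both KO libraries were below both WT libraries, also with total counts alone. Kif20b was at 209, 178, 189 and 194 CPM, with log2 ratios of -0.23 and 0.04, and its genotypes overlapped. Kif4-ps was at 62.1, 60.8, 51.1 and 36.4 CPM, low in KO RO, with -0.03 and -0.48. The transport kinesin Kif3b was nearly level, at 178, 197, 198 and 208 CPM, with log2 ratios of 0.15 and 0.07, while its partner Kif3a was at 260, 184, 250 and 186 CPM, with -0.50 and -0.43. Kif24, a kinesin of centrioles, was at 171, 98.9, 166 and 117 CPM, with -0.79 and -0.50. Kif28 had few counts, 21 in WT and 44 in KO for PA and 39 and 34 for RO, so that its log2 ratio of 1.11 in PA had an interval of 0.40 to 2.01.

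The other kinesin heavy chains had ratios of less than 2-fold between genotypes in both fractions. Over all 24 the median log2 ratio was -0.20 in PA and -0.07 in RO, with 9 and 11 genes above 0, and scaling on total counts alone turned both medians to the positive side (0.09 and 0.11). The kinesin light chain Klc2 was at 160, 117, 187 and 91.5 CPM in WT PA, KO PA, WT RO and KO RO, with log2 ratios of -0.45 and -1.03. The light chain Klc3, which in spermatids binds the fibres of the tail, had only 17, 36, 95 and 81 counts.

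Dync1h1 stood at 1046, 896, 946 and 859 CPM in WT PA, KO PA, WT RO and KO RO. Both KO libraries were slightly below both WT libraries, with log2 ratios of -0.22 (-0.26 to -0.19) in PA and -0.14 (-0.18 to -0.10) in RO. Dync2h1 was at 1326, 1024, 1582 and 1145 CPM, with -0.37 and -0.47. Both heavy chains thus had the KO libraries lower by less than 2-fold, and with total counts alone they overlapped. Dync1li1 was at 22.2, 30.3, 19.2 and 31.3 CPM, higher in both KO libraries, with 0.44 (0.21 to 0.69) and 0.70 (0.46 to 0.96). Dynll2 was at 27.2, 50.8, 34.3 and 71.8 CPM, also higher in both KO libraries, with 0.90 (0.70 to 1.11) and 1.06 (0.89 to 1.24). Its sister Dynll1 was at 92.6, 90.9, 83.9 and 125 CPM, with -0.03 in PA and 0.57 in RO. The dynactin gene Dctn5 was at 16.4, 17.6, 18.9 and 11.8 CPM, low only in KO RO, with 0.10 and -0.68. The pseudogene Dynlt1-ps1 was at 11.9, 11.2, 19.7 and 9.59 CPM, high only in WT RO.

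Myo1a, the myosin of the brush border in the gut, was lower in KO in both fractions. Its level was 136 CPM in WT and 51.3 in KO for PA and 201 and 75.8 for RO. Both KO libraries lay below both WT libraries, and the log2 ratios were -1.41 (-1.55 to -1.27) and -1.40 (-1.52 to -1.29). It was the only motor gene at least 2-fold lower in both fractions, where 6.05% of the genes with a peak and a CPM of at least 10 were, and with total counts alone it was still past 2-fold in both. Its single peak, in the 3′UTR, was in the WT PA list. Myo19, which binds mitochondria, was at 58.3, 27.2, 41.5 and 21.4 CPM, with -1.10 and -0.95. Myo7a was at 857, 548, 692 and 341 CPM, with -0.65 (-0.69 to -0.60) and -1.02 (-1.08 to -0.96). With total counts alone Myo19 in PA (-0.81) and Myo7a in RO (-0.84) were within 2-fold.

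Myo3a, a myosin that carries its own kinase domain, was at 7.42 CPM in WT and 12.2 in KO for PA and 9.12 and 30.8 for RO. It was high in KO RO, with log2 ratios of 0.71 (0.32 to 1.13) and 1.74 (1.43 to 2.08). Of the other unconventional myosins, Myo9a was at 524, 405, 524 and 415 CPM, below WT in both KO libraries with -0.37 and -0.34. Myo9b was at 161, 114, 101 and 114 CPM, high only in WT PA. Myo5a was at 122, 91.5, 98.3 and 121 CPM and Myo10 at 238, 222, 163 and 203, and in both genes the genotypes overlapped. Over the 10 unconventional myosins the median in PA was -0.39 with 1 above 0 and 9 below. With total counts alone it was -0.10 with 4 and 6.

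Myh9 was at 170 CPM in WT and 292 in KO for PA and 111 and 303 for RO. Both KO libraries were high and similar, and WT RO was the lowest. The log2 ratios were 0.78 (0.70 to 0.86) and 1.45 (1.36 to 1.55). Endothelial markers moved with it in RO: 5 of 6 (Pecam1, Cdh5, Kdr, Flt1 and Esam) were at least 2-fold higher in KO than in WT, and the list summed to 203 CPM in WT and 256 in KO for PA and 111 and 282 for RO. In PA 0 of 6 were at least 2-fold higher. The 3 macrophage markers summed to 46.7, 75.3, 63.3 and 87.6 CPM. Of them 2 were at least 2-fold higher in KO in PA, 1 of these (C1qc) from 2 counts in WT, and 1 in RO. Of 5 spermatogonium markers 1 was in PA and 2 in RO, and of 3 peritubular and smooth muscle markers 0 in each. The part of any of these cells in the ratio of Myh9 was not tested. Myh10, the non-muscle relative, was at 580, 470, 660 and 368 CPM, with -0.30 and -0.84, the opposite side from Myh9. Myh6 was at 8.61, 12.7, 7.56 and 21.0 CPM, with 0.55 and 1.45, and Myh15 at 196, 175, 311 and 295 CPM, with -0.17 and -0.08.

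**Figure D4:**
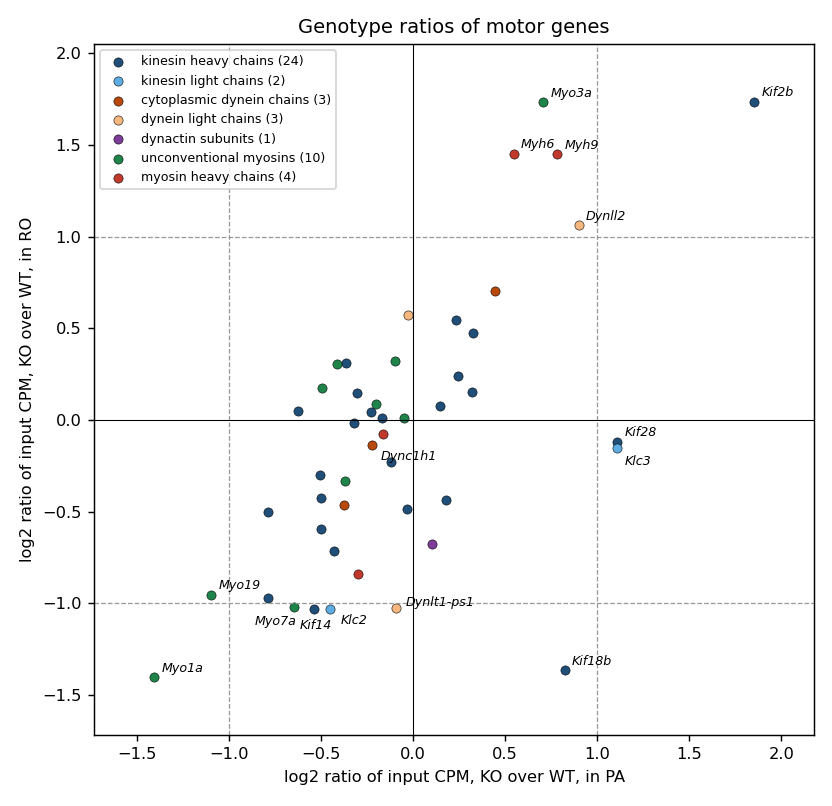
Log2 ratio of input CPM, KO over WT, in PA (horizontal) and in RO (vertical) for the 47 motor genes, 1 point per gene and coloured by class; dashed lines mark 2-fold. Kif2b (1.85 and 1.74) is beyond 2-fold to the upper right, Myo1a (-1.41 and -1.40) to the lower left, and Kif18b (0.82 and -1.37) is the gene farthest into the lower right.

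Between the fractions fewer motor genes were apart. In WT 3 were at least 2-fold higher in RO than in PA (Klc3, Kif18b and Kif17), against 21.6% of all genes, and 1 lower (Kif1c), against 18.7%. Either way that was 8.51% of the motor genes, beside 23.2% of the genes with a peak. In KO 2 were higher (Myo3a and Klc3), against 17.5%, and 0 lower, against 15.2%. Either way that was 4.26%, beside 14.0%. The median log2 ratio of RO over PA was -0.04 in WT and 0.01 in KO. With total counts alone the median in WT was 0.05, on the other side of 0.

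Klc3 was the only motor gene at least 2-fold higher in RO in both genotypes. At a CPM of at least 10, which Klc3 does not reach, 1.43% of the genes with a peak were, and 0 motor genes. Its level was 1.45 CPM in WT and 3.33 in KO for PA and 8.25 and 7.40 for RO. Both RO libraries were above both PA libraries. The log2 ratios were 2.37 (1.76 to 3.35) in WT and 1.11 (0.57 to 1.76) in KO, from the low counts given above. Kif17, a kinesin that in spermatids binds a partner of the transcription factor CREM, was at 101, 114, 203 and 150 CPM in WT PA, KO PA, WT RO and KO RO. Both RO libraries were above both PA libraries, with a 2.01-fold difference in WT (log2 interval 0.90 to 1.11) and a log2 ratio of 0.39 (0.28 to 0.50) in KO. Kif1c, a kinesin of vesicle transport, was at 48.5, 39.2, 19.6 and 21.7 CPM, low in both RO libraries, with -1.30 (-1.53 to -1.08) and -0.85 (-1.09 to -0.62).

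Kif21a, a kinesin best known from axons, was at 230, 288, 138 and 192 CPM, low in both RO libraries, with -0.74 and -0.59. Its relative Kif21b was at 97.0, 71.9, 171 and 104 CPM, high in RO, with 0.82 and 0.53. Myh15 was also high in both RO libraries, with 0.67 and 0.76. Kif3c had 186, 133, 93 and 110 counts, with -0.96 in WT and -0.29 in KO. Over all motor genes both RO libraries were above both PA libraries for 7, 14.9% against 15.4% of the genes with a peak, and below for 9, 19.1% against 17.0%. The first were Kif3b, Kif16b, Kif17, Kif21b, Kif27, Klc3 and Myh15. The second were Kif1c, Kif3c, Kif4-ps, Kif7, Kif13b, Kif21a, Myo6, Myo10 and Myo18a.

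**Figure D5:**
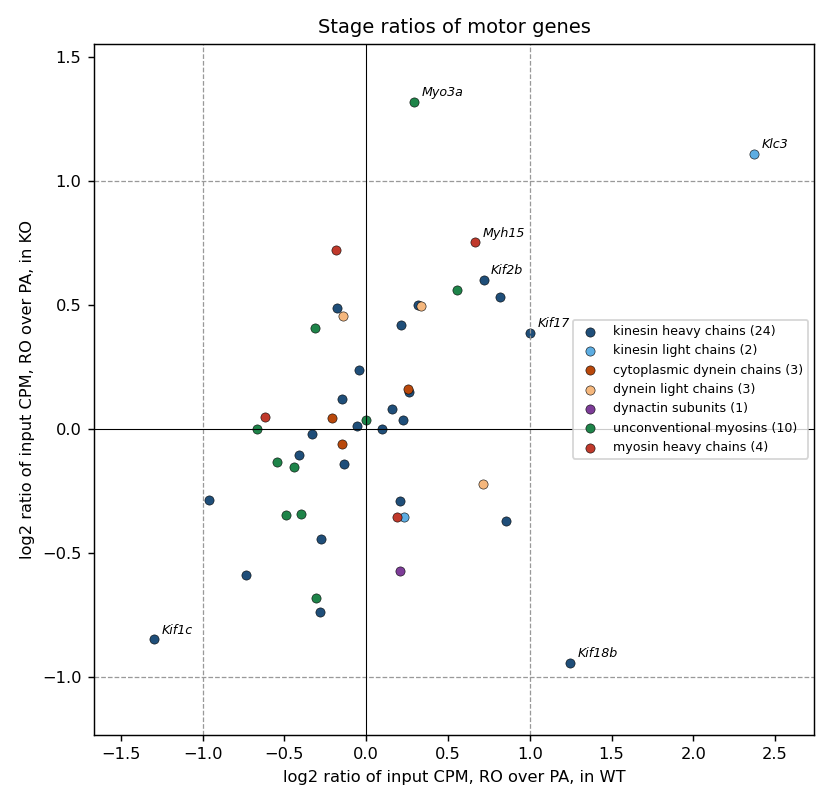
Log2 ratio of input CPM, RO over PA, in WT (horizontal) and in KO (vertical) for the 47 motor genes, 1 point per gene and coloured by class; dashed lines mark 2-fold. Klc3 (2.37 and 1.11) is beyond 2-fold in both genotypes, Kif18b (1.25 and -0.94) lies on opposite sides, and most genes lie within 2-fold on both axes.

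Genes with a peak in 1 list of a pair were set against their count ratio. In PA the 16 motor genes with a peak in KO only had a median log2 ratio of KO over WT of 0.14, where the like genes of the whole table had 0.07. The 21 with a peak in both lists had -0.22 against -0.09, and the 5 with a peak in WT only -0.31 against -0.28. In RO the 11 with a peak in KO only had -0.12 against 0.10, and the 4 with a peak in WT only -0.23 against -0.25. Between the fractions in WT, the 7 with a peak in RO only had a median ratio of RO over PA of 0.72 against 0.08. They were Kif1b, Kif2b, Kif2c, Kif3c, Kif17, Klc3 and Dynlt1-ps1. The 10 with a peak in PA and not in RO in WT had 0.00 against -0.15. In KO the 2 with a peak in RO only had -0.36 against -0.01, and the 9 with a peak in PA only 0.00 against 0.04. A peak is called against the counts of a gene, so lists and levels are not independent measures.

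The adaptors, regulators and partners of the motors were followed as 1 list. Of its 79 genes, only the 40 with a peak in some list could be followed, since symbols came from the peak lists. The shares of all genes set beside them include genes without a peak. In PA 0 were at least 2-fold higher in KO and 3 lower (Ninl, Mapk8ip2 and Plekhm2), with a median of -0.29, where 23.8% and 19.9% of all genes were. In RO 1 was higher (Nin) and 4 lower (Ninl, Mapk8ip2, Plekhm2 and Rab27a), with a median of -0.11, against 23.0% and 19.0%. With total counts alone the calls were 1 and 2 in PA and 5 and 1 in RO. Ninl, a centrosomal adaptor of dynein, was at 422, 188, 365 and 164 CPM in WT PA, KO PA, WT RO and KO RO. Plekhm2, an adaptor of kinesin on lysosomes, was at 78.4, 24.7, 53.9 and 24.9 CPM. Both were low in both KO libraries, and both had peaks in all 4 lists. In WT 0 of the 40 were higher in RO and 3 lower (Nde1, Nin and Rock2), against 21.6% and 18.7% of all genes. In KO 2 were higher (Mapk8ip2 and Myl6) and 0 lower, against 17.5% and 15.2%.

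The dyneins of the sperm tail axoneme bend the flagellum and are not transport motors. They were followed as a list of 14 genes by name, assembly factors included and only those with a peak in some list. In PA 0 were at least 2-fold higher in KO and 4 lower (Dnah1, Dnah2, Dnah14 and Dnah17), against 23.8% and 19.9% of all genes, with a median log2 ratio of -0.75. In RO 0 were higher and 8 lower (Dnah1, Dnah2, Dnah8, Dnah14, Dnah17, Dnali1, Dnaaf1 and Dnaaf2), against 23.0% and 19.0%, with a median of -1.07. With total counts alone 2 and 6 were lower and the medians were -0.46 and -0.89. Dnah2 was at 1960, 616, 2230 and 636 CPM in WT PA, KO PA, WT RO and KO RO, low in both KO libraries. Dnah17 was at 2380, 1090, 2880 and 1070 CPM, low in the same libraries. Between the fractions only Dnah3 was past 2-fold, in WT, at 405 CPM in PA and 821 in RO. Of all genes 21.6% were higher and 18.7% lower in RO in WT, and 17.5% and 15.2% in KO. Cytoplasmic dynein heavy chains were 0 of 2 past 2-fold in either fraction, as given above, and the difference between these lists was not tested.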

How the data were processed

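MeRIP-seq of 4 combinations of genotype and fraction was analysed, 1 input and 1 immunoprecipitated sample each, grouped by title. The authors deposited whole-number gene counts of the 4 input libraries (9921365 to 13147239 in total) and 4 peak lists, which per the file headers hold a fold (a ratio of immunoprecipitated over input signal), a p-value and logarithms of p and of the false discovery rate for each peak. Each peak list was assigned by the group its name gives. Cutadapt 2.5, HISAT2 2.1.0, HOMER 4.10.4 and mm10 are named in the submitters' processing notes without a role. The peak caller, counting tool and handling of strand are not given in the sources used here.

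Symbols came from the peak lists, so that a gene without a peak in any list could not be followed by name. Counts were scaled with TMM (edgeR 4.0.16, R 4.3.3), with total counts and DESeq2 1.42.0 size factors as alternatives, and turned into log2 CPM using a prior count of 2. A gene had to reach a CPM of 1 in 1 of the libraries compared, and differences of 2-fold or more were counted. Ratio intervals are exact binomial and shares have Wilson intervals, both at 95%. Peak overlap was checked with bedtools 2.31.1, and the ratio code was tested on simulated data. With 1 library per group no test was run.

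The members and lists were chosen with earlier results of these data known. Genes named with all 4 levels were the dynein and dynactin genes, the 3 genes with most peaks in each other class, those of the 3 highest folds per list, the 5 highest and 5 lowest ratios per comparison at a CPM of at least 10, genes past 2-fold in both fractions and genes with peaks in both KO lists only or both WT lists only. Kif3a, Kif7, Kif15, Kif27, Kif28 and the named genes of the other lists were chosen after their values were seen. Counts of immunoprecipitated libraries were not analysed here.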

Additional observations from a re-analysis of the deposited data

Results flagged for a closer look

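Kif18b had ratios between the genotypes of opposite sign in the 2 fractions. Its log2 ratio of KO over WT was 0.82 in PA and -1.37 in RO, so that the ratio in RO was lower by a difference of -2.19. With 1 library per group the difference was not tested. With the names of the KO libraries exchanged the ratio was -0.12 in PA and also below 0 in RO, so the opposite signs rest on those names. The counts behind it were 134 in WT and 220 in KO for PA and 315 and 115 for RO, and its single peak, in the WT PA list, was at a false discovery rate over 0.05.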

How the results depend on the processing

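No paired analysis was possible because the labels give no shared replicate numbers and each group has 1 library; for the same reason no replicate could be left out. The number of motor genes past 2-fold between genotypes in RO was 7 with total counts alone, against 11. At a CPM of at least 10 it was 3 in PA against 5, and 1 between the fractions in KO against 2. DESeq2 size factors, no filter and a prior count of 0.5 moved no such number by over 1.5 times. With the names of the KO libraries and lists exchanged, as a check on their labels, the numbers between genotypes were 8 in PA and 7 in RO, and by construction the ratios of RO over PA in KO turned, to -1.11 for Klc3 and -1.32 for Myo3a, and the shares between the KO lists changed places (90.4% and 65.7%). With a reciprocal overlap of 50% the shares of shared peaks were 47.6% (WT PA in KO PA), 29.9% (KO PA in WT PA), 37.0% (WT RO in KO RO), 32.7% (KO RO in WT RO), 38.1% (WT PA in WT RO), 34.8% (WT RO in WT PA) and 78.8% (KO RO in KO PA). With sharing counted by gene the motor gene shares were 85.7%, 68.7%, 91.3%, 76.9%, 73.8% and 84.8% in that order, 83.6% for KO PA in KO RO and 96.2% for KO RO in KO PA. For all peaks these were 89.3%, 75.1%, 75.9%, 77.7%, 81.9% and 71.5%, then 85.1% and 90.1%. Peaks per list and peaks against level kept within their intervals under a false discovery rate under 0.05, and peaks per list also under a fold of at least 5. Depth limits Klc3 and Kif28 most, at 17 to 95 counts. With only peaks under a false discovery rate of 0.05, a setting chosen after seeing the data, the motor genes with a peak in both KO lists and neither WT list numbered 8 in place of 6, and those with a peak in WT PA only 2 in place of 5. These were 18.2% and 4.55% of the 44 motor genes that kept a peak, against 8.19% and 3.36% of all genes.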

Other observations

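Some motor genes carry symbols outside the naming rule. Kifc1, a kinesin that walks to the minus end of microtubules and is used in spindles and in shaping the sperm head, was at 16.5 CPM in WT and 16.8 in KO for PA and 25.2 and 12.9 for RO, low in KO RO, with log2 ratios of KO over WT of 0.02 in PA and -0.96 in RO. Its close copy Kifc5b, whose reads may be shared with it, was at 33.9, 19.0, 28.0 and 15.7 CPM, with -0.83 in both fractions. Cenpe, the kinesin of kinetochores, was at 207, 203, 206 and 198 CPM, within 0.05 of 0 on the log2 scale in both fractions. All 3 had peaks in all 4 lists.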
